A study of Mus musculus with 6 samples.

Results

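The keratin genes were followed in melanocyte stem cells, which renew the pigment cells of the hair, sorted from the skin of male WT mice and of male K14-SCF Tg mice. Members were chosen by symbol alone, as every gene named Krt with digits and at most 1 further letter, without the keratin-associated protein genes. The RefSeq gene table of assembly GRCm38.p6 lists 54 such genes, and 53 of them had at least 1 probe on the array, 64 probes in all, out of 21362 genes with a probe. Each genotype was measured on 3 arrays, 1 per sample, with 1 dye. In K14-SCF Tg mice the keratin 14 promoter, active in basal keratinocytes, drives expression of SCF (stem cell factor), which binds KIT on melanocytes. The gate was green fluorescence with low side scatter. The labels name neither the promoter behind the fluorescent protein nor the age of the mice, and they number the replicates without saying that these were separate animals. The p-values therefore set a difference between the genotypes only against the spread of these samples, and that spread may be technical.

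Keratins are the intermediate filament proteins of epithelia, and each filament pairs a type I keratin with a type II keratin. Which pair a cell makes follows its place in the tissue: KRT5 with KRT14 in the basal layer of the epidermis, KRT1 with KRT10 above it, KRT6 with KRT16 and KRT17 in stressed epidermis and in the outer layers of the follicle, hair keratins in the shaft, and KRT8 with KRT18 in simple epithelia. Melanocytes carry filaments of vimentin instead. Keratin RNA in a sort of melanocyte stem cells is therefore commonly read as a sign of epithelial RNA. In bulk RNA, fewer keratinocytes in a sort and less keratin RNA per cell cannot be told apart.

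A sequence feature that the choice of members did not use was more frequent in keratin promoters than in all promoters, though many keratin promoters lacked it. Promoters from several classes, with both partners of the basal pair, are shown for that reason. RefSeq start sites gave 37 windows for 36 of the keratin genes, taken from GRCm38.p6. The letters TATAAA, searched on the strand of the gene between positions -45 and -16 before the start, were found in 13 of the 37 windows (35.1%) against 2.14% of all 32851 windows of the same length. The shorter ATAAA, which is contained in TATAAA, was found in 20 keratin windows (54.1%) against 4.83% of all. A match describes these letters and is not evidence of a working site. Each line below gives the 100 bases before the start, 5′ to 3′ on the strand of the gene, with the matched letters in capitals. Krt10, Krt28 and Krt31 held TATAAA, beginning at positions -26, -30 and -29, and Krt5 held ATAAA at -29. Krt14 and Krt18 held neither in these positions.
Krt5, minus strand of chr15:101712906-101713005: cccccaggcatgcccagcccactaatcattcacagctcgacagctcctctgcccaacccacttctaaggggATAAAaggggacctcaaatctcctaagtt
Krt14, minus strand of chr11:100206031-100206130: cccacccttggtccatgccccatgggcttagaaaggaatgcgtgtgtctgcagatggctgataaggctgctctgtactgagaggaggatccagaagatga
Krt10, minus strand of chr11:99389365-99389464: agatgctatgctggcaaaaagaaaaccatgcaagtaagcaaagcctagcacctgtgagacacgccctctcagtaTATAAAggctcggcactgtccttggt
Krt28, minus strand of chr11:99374904-99375003: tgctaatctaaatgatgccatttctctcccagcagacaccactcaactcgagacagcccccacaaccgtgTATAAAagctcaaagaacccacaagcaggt
Krt31, minus strand of chr11:100050552-100050651: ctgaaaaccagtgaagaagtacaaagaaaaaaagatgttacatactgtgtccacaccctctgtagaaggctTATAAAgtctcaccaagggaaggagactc
Krt18, plus strand of chr15:102028116-102028215: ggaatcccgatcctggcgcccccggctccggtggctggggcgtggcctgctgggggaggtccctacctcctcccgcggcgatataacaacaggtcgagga

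Levels are processed signals relative to the 75th percentile of the same array, on the log2 scale, so that 0 is the level of that percentile. They compare arrays for 1 probe, not genes with each other. The brightest tested probe stands for a gene, and a gene was tested where a probe was well above background on 3 or more arrays. The share of probes well above background ran from 78.4%, on WT replicate 3, to 87.1%, and no spot was saturated. WT replicate 1 was the single array from slide 1. On slide 2, row 2 held the third replicates of both genotypes, so row and replicate number cannot be told apart there. Among melanocyte markers, Dct, the enzyme that converts dopachrome in melanin synthesis, stood between 5.60 and 6.08 on the arrays and Mlana, a melanosome protein, between 5.87 and 6.28, while Tyr, the tyrosinase, stood between 3.64 and 4.22.

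None of the keratins passed the test between the genotypes. Of 46 tested keratins, limma called 0 higher and 0 lower in K14-SCF Tg at an adjusted p under 0.05 (all tested genes: 0.00545% higher and 0% lower). At an unadjusted p under 0.05 it counted 1, Krt17 (5.42% of all tested genes). Log2 fold changes, Tg minus WT, were positive for 28 and negative for 18 keratins (48.6% of all tested genes were positive), and ran from -1.17 for Krt80 to 2.18 for Krt17. Their median was 0.05, beside -0.01 over all tested genes. Adjusted p-values from limma lay between 0.844 and 1.00. The 2 genotypes did not overlap in 4 keratins, 3 with Tg above WT (5.12% of all genes) and 1 with Tg below WT (5.41%). The 26 tested type I keratins had a median log2 fold change of 0.18 and the 20 tested type II keratins one of -0.03.

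**Figure D1:**
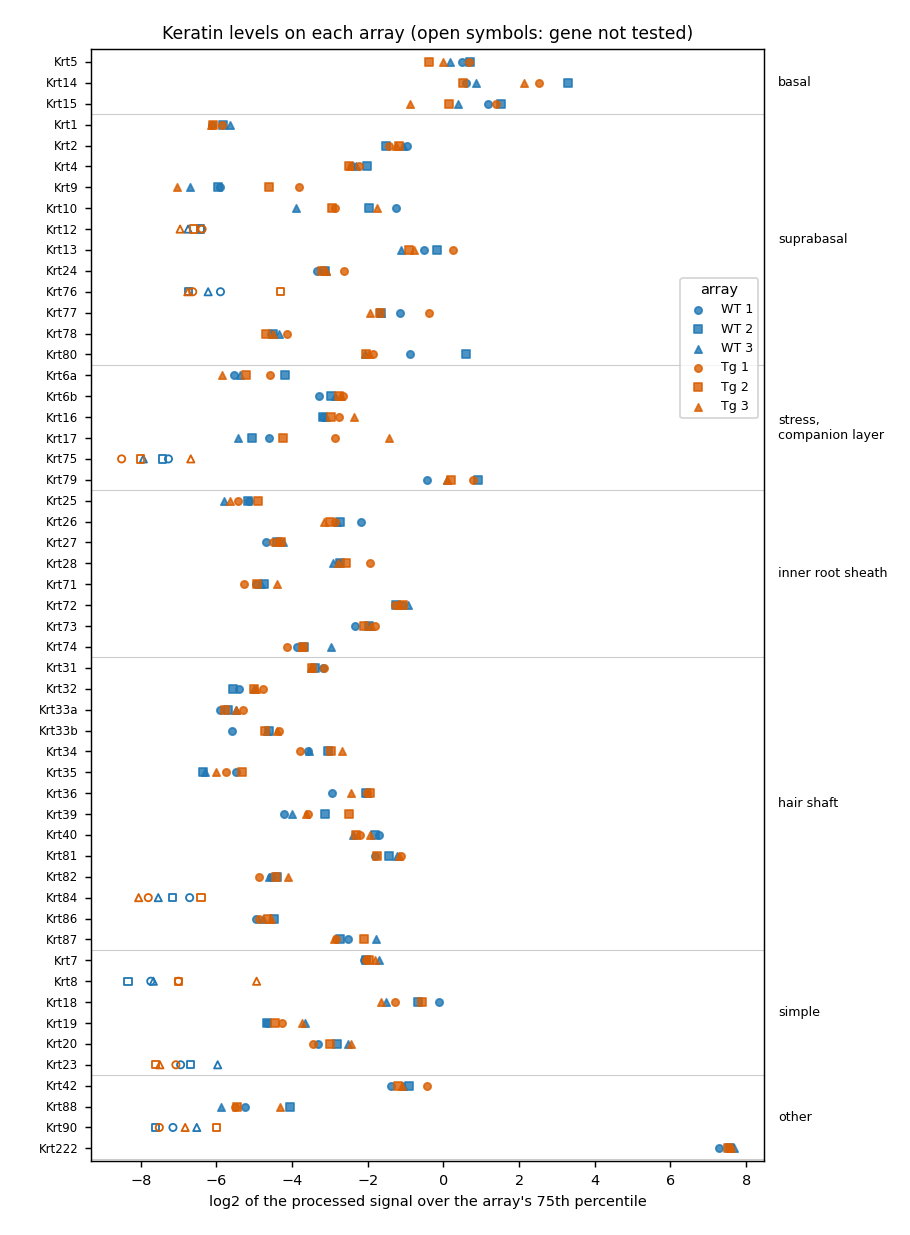
Level of 53 keratins on each of the 6 arrays, grouped by class. The x axis is the log2 level relative to the array's 75th percentile, blue points are WT arrays, orange points are K14-SCF Tg arrays, the shape gives the replicate, and open symbols mark 7 genes that were not tested. Krt14 runs from 0.51 to 3.28 with both genotypes at both ends, whereas the symbols of Krt72 or Krt7 nearly coincide.

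**Figure D2:**
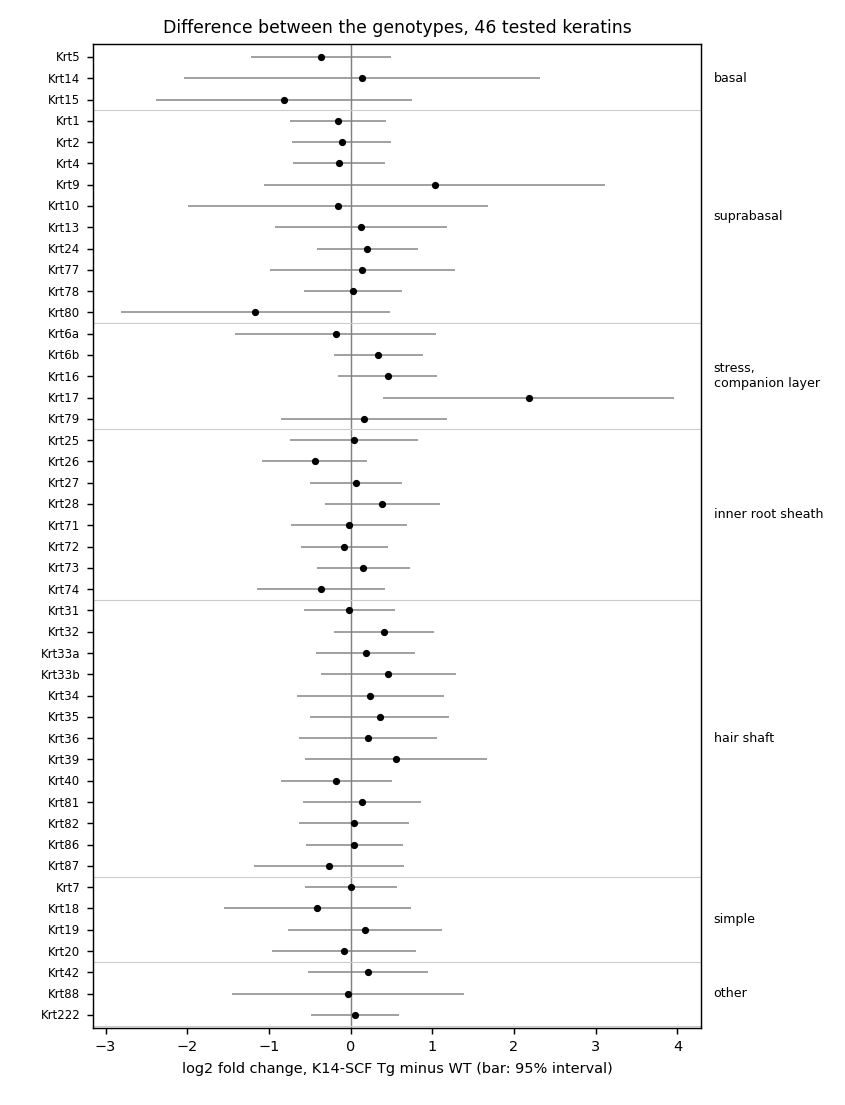
Log2 fold change, K14-SCF Tg minus WT, of the 46 tested keratins with its 95% interval from limma. Krt17, at 2.18, has the interval farthest from 0, and the other 45 intervals include 0.

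Basal keratins were detected on all 6 arrays and differed more between replicates than between genotypes. Krt14, the type I keratin of the basal layer, stood at 0.60, 3.28 and 0.86 on WT replicates 1 to 3 and at 2.52, 0.51 and 2.12 on Tg replicates 1 to 3. WT replicate 2, Tg replicate 1 and Tg replicate 3 were high. The genotypes overlapped, and the highest of the 6 arrays stood 6.80-fold above the lowest. The log2 fold change was 0.14 (SE 0.89, 95% interval from -2.04 to 2.31), and without WT replicate 2 it was 0.99, without WT replicate 1 -0.35. Krt5, its type II partner, stood at 0.50, 0.69 and 0.16 in WT and 0.69, -0.39 and -0.02 in Tg. It was high on WT replicate 2 and Tg replicate 1, as Krt14 was, but not on Tg replicate 3, and its log2 fold change was -0.36 (SE 0.35). Krt15, a keratin of basal cells and of the follicle bulge where melanocyte stem cells reside, stood at 1.18, 1.52 and 0.40 in WT and 1.39, 0.15 and -0.89 in Tg. Its lowest value was on Tg replicate 3, an array that was among the highest for Krt14, and the log2 fold change was -0.81 (SE 0.64). Without Tg replicate 3 it was -0.26, and without Tg replicate 1 -1.40. The summed level of the 3 genes ran from 4.25 to 14.2 times the 75th percentile on WT arrays and from 3.31 to 9.98 on Tg arrays, of which Krt14 made up between 29.1% and 74.0%.

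The order of the arrays for Krt14 recurred in some epithelial genes that are not keratins, a pattern chosen after the values were seen. WT replicate 2, Tg replicate 1 and Tg replicate 3 were also the 3 highest arrays for Epcam, an adhesion molecule of epithelial cells, at -0.68, -1.47 and -1.86, while the other arrays lay between -3.90 and -3.59. For Perp, a desmosome component, these arrays stood at 2.07, 0.87 and 0.14, and the others between -2.32 and -0.26. Sfn, the epithelial 14-3-3 protein, lay between -1.21 and -1.08 on these arrays and between -2.28 and -1.71 on the others, and Ly6d, a keratinocyte surface protein, between -2.17 and -1.56 and between -2.82 and -2.59. In all, 9 of 58 tested members of the desmosome, hemidesmosome, cornified envelope and keratinocyte lists had these 3 highest arrays (15.5%), where 4.49% of all tested genes did. Dsp, at its brighter probe, was among these members, whereas Itgb4, Col17a1, Cdh1, Trp63 and Lgals7 were not. Among the other 45 tested keratins 2 had these highest arrays, Krt33b and Krt73. The share of keratinocyte RNA in each sort was not tested.

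**Figure D3:**
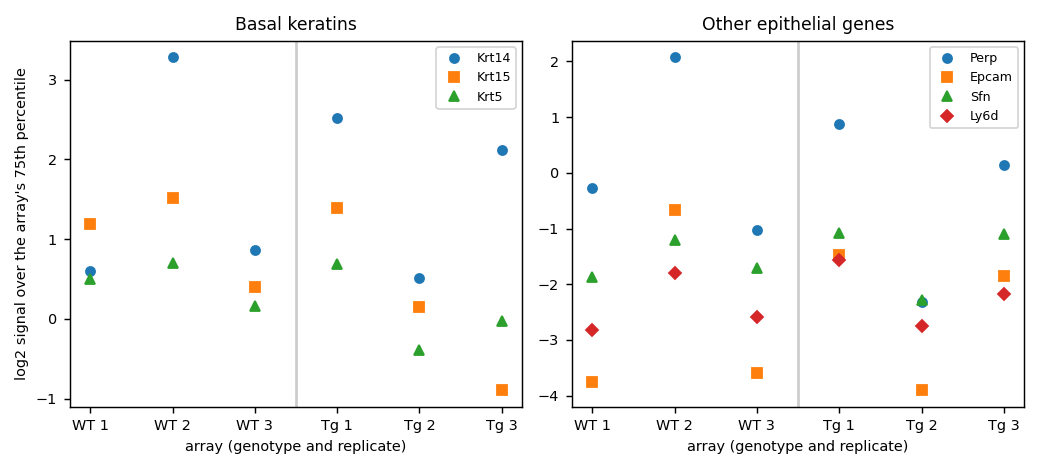
Level of the 3 basal keratins (left) and of 4 other epithelial genes (right) on each array, in log2 of the signal over the array's 75th percentile, WT left of the grey line and K14-SCF Tg right of it. WT replicate 2, Tg replicate 1 and Tg replicate 3 hold the 3 highest values of Krt14, Perp, Epcam, Sfn and Ly6d, but not of Krt15 or Krt5. The 4 genes on the right were picked because they show this order.

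Suprabasal keratins, which keratinocytes make on leaving the basal layer, and keratins of other stratified linings were tested for 10 of 12 genes. Their median log2 fold change was -0.04, with 5 positive and 5 negative, and in none did the genotypes fail to overlap. Krt10, the type I keratin of the spinous layer, stood at -1.26, -1.96 and -3.89 in WT and -2.87, -2.96 and -1.74 in Tg, a log2 fold change of -0.15 (SE 0.75). Krt1, its type II partner, was well above background on WT replicate 2 and on Tg replicates 1 and 2. It stood at -6.13, -5.83 and -5.65 in WT and -5.85, -6.08 and -6.14 in Tg (log2 fold change -0.15, SE 0.24), close to background on every array. Krt80, a type II keratin of many epithelia, stood at -0.88, 0.61 and -2.09 in WT and -1.87, -2.04 and -1.96 in Tg. WT replicates 1 and 2 lay above the Tg arrays and WT replicate 3 below them. The log2 fold change was -1.17 (SE 0.67), and without WT replicate 2 it was -0.47. Krt9, the keratin of palm and sole epidermis, was above background on 2 arrays of each genotype, at -5.91, -5.95 and -6.70 in WT and -3.82, -4.62 and -7.05 in Tg (log2 fold change 1.03, SE 0.85). Without Tg replicate 1 it was 0.36, and without Tg replicate 3 1.97. Krt24 stood at -3.33, -3.14 and -3.09 in WT and -2.63, -3.20 and -3.12 in Tg, a difference of 0.20 (SE 0.25). Krt2, Krt4, Krt13, Krt77 and Krt78 had log2 fold changes between -0.14 and 0.14. Krt12, the corneal keratin, was above background on no array, and Krt76, a keratin of the oral lining, on 1 array of each genotype.

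The genotypes did not overlap in 4 of the 46 tested keratins, and in 10.5% of all tested genes. Of these 4 keratins, 3 belonged to stressed epidermis and the companion layer. Krt17, made in the outer root sheath, in skin appendages and in wounds, stood at -4.61, -5.06 and -5.43 in WT and -2.86, -4.25 and -1.44 in Tg. Every Tg array lay above every WT array, but the Tg arrays spread over a wider range than the gap, and WT replicate 3 was not above background. The means were -5.03 ± 0.41 in WT and -2.85 ± 1.41 in Tg (SD, n = 3 each), a log2 fold change of 2.18 (SE 0.72, 95% interval from 0.40 to 3.95), which did not pass (limma, adjusted p = 0.844). Without Tg replicate 3 it was 1.47, without Tg replicate 2 2.88, and with normexp background correction and quantile normalization 1.24. With that correction, and without WT replicate 2, 0 keratins had an unadjusted p under 0.05 in limma. Without WT replicate 3 and without Tg replicate 1 the count was 1. It was 2 without Tg replicate 3 and 3 without the filter on dim probes. Which keratins these counts held was not recorded. Where a probe had to be above background on all 6 arrays, Krt17 was left out and the count was 0. Krt16, a type I keratin induced in wounds, stood at -3.19, -3.17 and -3.09 in WT and -2.75, -2.98 and -2.36 in Tg, a log2 fold change of 0.45 (SE 0.25). Krt6b, a type II keratin of the same settings, stood at -3.30, -2.98 and -2.87 in WT and -2.66, -2.76 and -2.71 in Tg, a log2 fold change of 0.34 (SE 0.22). Its second probe gave -0.92 (SE 0.75), with the genotypes overlapping. The separation of Krt16 and Krt6b held under the scaling used here and in the deposited values, while under quantile normalization, median centring or another background correction Krt17 was the 1 of the 5 tested genes without overlap. Krt6a stood at -5.55, -4.20 and -5.39 in WT and -4.59, -5.22 and -5.86 in Tg (-0.18, SE 0.50). Krt79, a keratin of the upper follicle, had a log2 fold change of 0.17 (SE 0.42), and Krt75, of the companion layer, was above background on no array. Krt6a and Krt6b, and Krt14, Krt16 and Krt17, are close paralogs, so a probe may also bind a relative's RNA. The probe sequences were not analysed here.

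Hair keratins were split into those of the inner root sheath and those of the shaft. All 8 inner root sheath keratins were tested, with a median log2 fold change of 0.01, 4 positive and 4 negative. Krt26 was the 1 keratin with every Tg array below every WT array. It stood at -2.19, -2.74 and -2.80 in WT and -2.88, -3.01 and -3.17 in Tg, a log2 fold change of -0.44 (SE 0.26) that was -0.25 without WT replicate 1. Krt28, whose promoter is shown above, stood at -2.77, -2.75 and -2.93 in WT and -1.95, -2.56 and -2.78 in Tg (0.39, SE 0.29). Tg replicates 1 and 2 lay above the WT arrays and Tg replicate 3 within their range. Krt74, which RefSeq lists as a transcribed pseudogene in the mouse, stood at -3.87, -3.69 and -2.97 in WT and -4.15, -3.72 and -3.75 in Tg (-0.36, SE 0.32). In this class 7 of 8 members ranged over less than 1 log2 unit across the 6 arrays, where 34.7% of all tested genes did.

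Of the shaft keratins, the hard keratins of the growing hair, 14 had a probe and 13 were tested. Their median log2 fold change was 0.18, with 10 positive and 3 negative, and the genotypes overlapped in every tested one. Krt32 stood at -5.40, -5.57 and -5.00 in WT and -4.78, -5.01 and -4.95 in Tg (0.41, SE 0.25), with WT replicate 3 inside the Tg range. Krt33b stood at -5.58, -4.61 and -4.68 in WT and -4.35, -4.73 and -4.40 in Tg (0.46, SE 0.34), where WT replicate 1 was low. Krt39 stood at -4.22, -3.13 and -4.00 in WT and -3.57, -2.49 and -3.62 in Tg (0.56, SE 0.45), and without Tg replicate 2 the difference was 0.19. These 3 had the smallest p-values of the class, at limma adjusted p between 0.954 and 0.980. Krt31, also shown above by its promoter, lay between -3.50 and -3.17 on all arrays (-0.02, SE 0.23), and Krt35, an early keratin of the hair cortex, was above background on 1 WT and 3 Tg arrays (0.36, SE 0.35). Krt84 was above background on none. Hair genes outside the keratins were partly undetected: Tchh, the trichohyalin of the inner root sheath and medulla, and Hoxc13, a regulator of hair keratin genes, were each above background on a single array, WT replicate 2. Of that list of 16 genes 12 were tested, 0 passed (limma, smallest adjusted p = 0.942) and the median log2 fold change was 0.26. Selenbp1 (2.08, 95% interval from -0.61 to 4.78), Padi1 (1.39, SE 0.81), Padi3 (0.52, SE 0.32) and Lef1 (1.90, SE 1.26) had its smallest p-values.

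Simple epithelial keratins were uneven in detection. Krt18, the type I keratin of simple epithelia, was above background on all 6 arrays, at -0.11, -0.67 and -1.51 in WT and -1.27, -0.58 and -1.66 in Tg (-0.41, SE 0.47). Krt8, its type II partner, stood at -7.74, -8.34 and -7.67 in WT and -7.01, -7.01 and -4.94 in Tg. The last of these was the single value above background, so Krt8 was not tested and no fold is given. Krt7 stood at -2.10, -2.06 and -1.69 in WT and -2.04, -1.97 and -1.81 in Tg, a log2 fold change of 0.01 (SE 0.23, 95% interval from -0.56 to 0.57). Krt19, also made in the follicle bulge, stood at -4.67, -4.66 and -3.65 in WT and -4.27, -4.46 and -3.73 in Tg (0.17, SE 0.38). Replicate 3 was the highest array of Krt19 in both genotypes, and of Krt20 as well, and both these arrays lay in slide row 2. Krt20, an intestinal keratin, differed by -0.09 (SE 0.36), and Krt23 was above background on no array.

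Of the members outside these classes, Krt222 stood at 7.28, 7.58 and 7.67 in WT and 7.58, 7.53 and 7.60 in Tg (0.05, SE 0.22). Its other probe was above background on 1 array, Tg replicate 1 at -4.47, and lay between -8.73 and -7.75 on the others. Krt42, a type I keratin of the nail region, stood at -1.39, -0.91 and -1.06 in WT and -0.44, -1.20 and -1.08 in Tg (0.21, SE 0.30). Krt88 was above background on 2 WT and 3 Tg arrays, at -5.25, -4.05 and -5.89 in WT and -5.52, -5.45 and -4.33 in Tg (-0.03, SE 0.58). Krt90 was above background on 1 array. In all, 40 of the 53 keratins were above background on every array and 4 on none: Krt12, Krt23, Krt75 and Krt84.

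The probes of a keratin did not always give the same direction. Of 11 keratins with several probes, 6 had 2 tested ones, and in 3 of these, Krt10, Krt13 and Krt6b, the log2 fold changes had opposite signs (45.3% of the 4853 genes with several tested probes). The second Krt10 probe stood at -3.36, -3.48 and -3.25 in WT and -2.29, -3.35 and 0.67 in Tg. Its log2 fold change was 1.71 (SE 1.01) against -0.15 at the probe above, and Tg replicate 3 alone was far above the rest. The second Krt5 probe stood at -4.11, -3.73 and -0.08 in WT and -1.21, -3.46 and -3.50 in Tg (-0.08, SE 1.24), high on WT replicate 3 and Tg replicate 1. The brighter Krt5 probe was not high on WT replicate 3. In Krt13, a keratin of the oral and oesophageal lining, the probes gave 0.13 and -0.64, and both were highest on WT replicate 2 and Tg replicate 1. The second Krt2 probe stood at -2.70 on WT replicate 1 and between -6.75 and -4.95 elsewhere, whereas the brighter one held between -1.52 and -0.96.

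**Figure D4:**
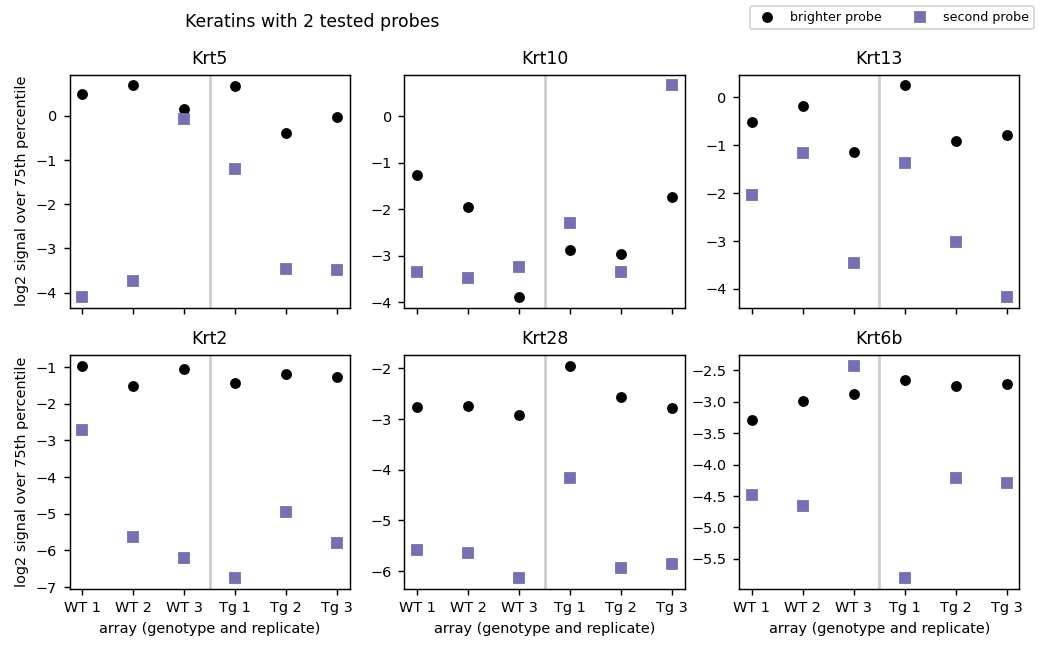
Level of both probes of the 6 keratins with 2 tested probes, on each array, in log2 of the signal over the array's 75th percentile, WT left of the grey line. Black circles are the brighter probe and violet squares the second probe. In Krt28 both probes are highest on Tg replicate 1, and in Krt10 the second probe is far higher on Tg replicate 3 than elsewhere.

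At the brightest tested probe, which stands for a gene here, most keratins of low signal varied little between replicates. The second probes of the 6 keratins with 2 tested ones varied more, with SDs from 0.738 for Krt28 to 1.825 for Krt5. The median SD between replicates of a genotype was 0.36 over the 46 tested keratins and 0.49 over all tested genes. All tested genes were split into 4 equal bins by mean level. Of the 36 keratins in the 2 dimmer bins, 30 lay under the median SD of their bin, which was 0.65 in the dimmest and 0.67 in the next. The basal class stood at the other end, with a median SD of 0.91. A range over 2 log2 units across the arrays was found in 6 keratins, Krt14, Krt15, Krt10, Krt9, Krt80 and Krt17 (29.9% of all tested genes), and a range under 1 in 25. Tg replicate 1 was the highest array for 14 of the 46 tested keratins (30.4%) and for 13.5% of all tested genes.

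**Figure D5:**
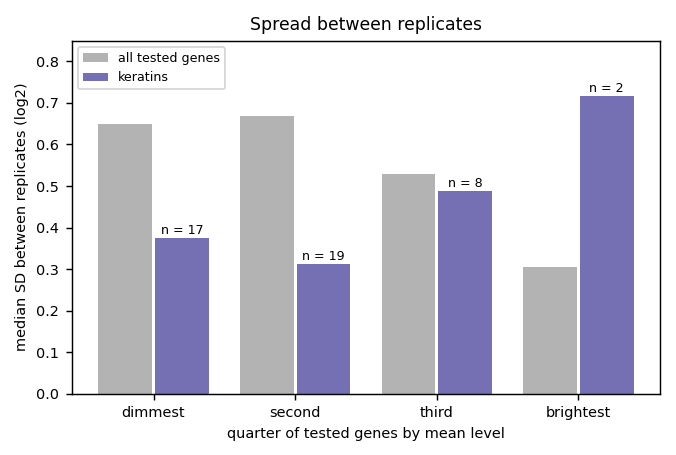
Median SD between replicates, in log2 units, of all tested genes (grey) and of tested keratins (violet), in 4 equal bins of all genes by mean level. Each gene is taken at its brightest tested probe. Keratin bars are lower in the dimmest bin (0.38, 17 keratins) and the next (0.31, 19 keratins), and the brightest bin holds 2 keratins.

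The proteins that anchor keratin filaments, and other markers of keratinocytes, were measured beside the keratins. Desmosome genes, whose products tie keratin filaments to cell contacts, were tested for 14 of 16 members, with a median log2 fold change of 0.08. Pkp4 (-0.80, SE 0.29), Dsg2 (0.96, SE 0.56), Jup (-0.51, SE 0.36) and Dsc2 (-0.86, SE 0.68) had the smallest p-values. Dsp, the plakin that binds the filaments, stood at -3.55, -3.27 and -6.99 in WT and -3.16, -5.17 and -1.85 in Tg (1.21, SE 1.28). Its second probe went the other way, at -1.54, -6.18 and -5.92 in WT and -3.74, -5.67 and -5.85 in Tg (-0.54, SE 1.37). The 9 hemidesmosome genes, which anchor basal cells to the matrix, had a median of -0.06. Itga6, an integrin chain of these anchors, had a log2 fold change of -0.27 (SE 0.21). Lama3, a laminin chain, stood at 2.23, 2.95 and 2.48 in WT and 3.40, 3.25 and 3.40 in Tg (0.79, SE 0.27), with every Tg array above every WT array. Col17a1, which spans the basal membrane of keratinocytes, had a log2 fold change of -0.12 (SE 0.34) and Itgb4 one of -0.68 (SE 0.52). Itgb4 was at 0.03 on WT replicate 1 and between -1.83 and -1.70 elsewhere. In Itga6 and Itgb4 every Tg array lay below every WT array (5.41% of all tested genes), the opposite order to Lama3 (5.12%). For Itgb4 the gap was narrow, with WT replicate 2 at -1.721 and Tg replicate 3 at -1.744. Whether these orders hold under other scalings was not tested.

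Cornified envelope genes, made in the outermost living layers, were tested for 18 of 25 members with a probe, with a median of 0.09, and 6 were above background on no array. The log2 fold change of Tgm1, the cross-linking transglutaminase, was 0.88 (SE 0.32), that of Evpl -0.48 (SE 0.26) and that of Sbsn -0.53 (SE 0.40). Sprr1a was above background on 1 WT and 3 Tg arrays, so that its log2 fold change of 0.72 (SE 0.54) is set against WT values that were mostly not above background. Of 18 further keratinocyte markers 17 were tested, with a median of 0.11. Grhl3 had a log2 fold change of 0.63 (SE 0.49) and Sostdc1 one of 0.69 (SE 0.62). Lgals7, a galectin of stratified epithelia, differed by 0.70 (SE 0.37) and Cdh1, the cadherin of epithelia and of melanocytes, by -0.15 (SE 0.33). Lypd3, a surface protein of suprabasal cells, stood at -6.51, -5.85 and -5.61 in WT and -3.52, -2.84 and -2.26 in Tg (3.11, SE 0.42; limma, adjusted p = 0.415). It was above background on 1 WT and 3 Tg arrays and entered the test through the Tg arrays, so the size of this difference rests on WT values that were mostly not above background. For Trp63, the regulator of basal keratinocytes, the brighter probe held between 6.76 and 7.14, and the other ran from -8.83 to -4.54 and was above background on 3 of 6 arrays. No member of these 4 lists was called by limma, and 1 of each had an unadjusted p under 0.05 (5.42% of all tested genes). The summed level of the keratinocyte markers ran from 118 to 153 times the 75th percentile on WT arrays and from 131 to 145 on Tg arrays, but the brighter Trp63 probe alone made up between 92.0% and 94.5% of it. Without Trp63 the sum ran from 8.04 to 12.2 on WT arrays and from 7.20 to 9.27 on Tg arrays. Pkp3, a plakophilin, made up between 74.0% and 83.8% of the summed desmosome level, which ran from 55.5 to 62.5 in WT and from 49.9 to 54.9 in Tg. Without Pkp3 the desmosome sum ran from 13.5 to 15.8 on WT arrays and from 8.08 to 11.4 on Tg arrays. Such sums add probes of unequal brightness and weigh the brightest most. The part of epithelial RNA in the values of Krt17 and Lypd3 was not tested.

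Vim, the filament gene of melanocytes, stood at 5.38, 5.44 and 5.59 in WT and 5.26, 5.65 and 5.37 in Tg (-0.04, SE 0.23). Of 16 intermediate filament genes outside the keratins 15 were tested and 0 passed. Bfsp2, a lens filament gene (2.31, SE 0.77), Nefm, a neurofilament (1.27, SE 0.54), Sync (0.45, SE 0.25) and Prph (0.35, SE 0.26) had the smallest p-values (limma, smallest adjusted p = 0.844), 1 of them under 0.05 unadjusted. Their median log2 fold change was 0.08. Among other cell types, fibroblast markers had a median of -1.11 and ran from -2.31 to 2.19, with 6 positive and 10 negative. Of the 16 tested, 5 had an unadjusted p under 0.05 in limma, beside 5.42% of all tested genes. Leukocyte markers had a median of 0.07, with 0 of 12 under that threshold. The melanocyte list, tested for 13 of 14 genes, had a median of -0.02 with 1 at an unadjusted p under 0.05. This was Ednrb, the endothelin receptor of the lineage, at 4.76, 4.68 and 4.67 in WT and 4.09, 4.16 and 3.91 in Tg (-0.65, SE 0.21; limma, adjusted p = 0.822).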

How the data were processed

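Melanocyte stem cells from 3 WT and 3 K14-SCF Tg samples were measured on 6 Agilent arrays from amplified cDNA with 1 dye (Cy3), per the labels. Spots were quantified by Agilent Feature Extraction 10.7.1.1 per the submitters' processing notes, with a probe design of build mm9 per the file headers. Per the file headers, the deposited intensity is the processed signal, background-subtracted and detrended within an array and not normalized between arrays. The authors' deposited value table is a linear ratio, the processed signal over 1 constant per array (at least 99.96% of values within 1%), with column medians of 0.17, 0.177 and 0.169 for WT and 0.184, 0.188 and 0.176 for Tg replicates 1 to 3. It is not centred per gene, and how the constant was set is not stated in the labels or headers. On every array the constant lay close to the 75th percentile used here. It was 1566 against 1572 on WT replicate 1 and 1678 against 1687 on Tg replicate 2.

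Control and outlier spots were left out, spots of a probe averaged as log2, and the array's 75th percentile subtracted. A probe was above background where a share of at least 0.5 of its spots was flagged so in the deposited files. The 47709 tested probes covered 18364 genes named by RefSeq accession (28323 of 29784 probes with such an accession matched a table of GRCm38.p6, used for names and promoter windows). Genotypes were compared by limma's moderated test (limma 3.58.1, R 4.3.3), 2-sided and without covariates. Its p-values were adjusted by Benjamini-Hochberg across the tested probes, and 0.05 was the threshold. After the main fit, the same test was also run on simulated data with means and variances taken from these arrays. Its outcome is not reported here. The 3 arrays per genotype limit the precision. Members, classes and lists were chosen with earlier results of these data known. Values on every array are given for the basal keratins, for Krt1, Krt10, Krt6a, Krt16, Krt17, Krt8, Krt18, Krt7 and Krt19, and for the 3 smallest p-values of each further class. Of each other list up to 4 genes with the smallest p-values are named, plus defining markers; 1 gene that this rule names is not reported here. Same-numbered arrays of the genotypes did not deviate together in every pair (correlation of deviations 0.02, 0.05 and 0.13), so the numbers were not taken as pairs.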

Additional observations from a re-analysis of the deposited data

How the results depend on the processing

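The counts of 0 keratins called higher and 0 lower by limma held under each alternative run: quantile normalization, median centring, the deposited values, another background correction (normexp with quantile normalization), no filter on dim probes, background on all 6 arrays, the mean of the probes, slide as a block, slide row, a trended and robust variance, an adjusted p under 0.10, and leaving out each array. The deposited values are scaled by nearly the same array constants as the main run, so they are not a separate scaling. The median over tested keratins moved from 0.05 to between -0.04 and 0.12. With the replicate number as a block, 0 keratins were called and the median stayed 0.05; no call changed, and the block took the count of all genes called from 1 to 0. Signs of single keratins changed for up to 11 of 46 (slide as a block, which here equals leaving out WT replicate 1, the single array of its slide). The count of 3 stress keratins with every Tg array above every WT array, an alternative chosen after seeing the data, fell to 1 under quantile normalization, under median centring and under normexp with quantile normalization, and to 2 with the dimmest tested probe; the cause was not tested. Keratins near background, such as Krt1, Krt9 and Krt35, are limited by signal.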
